A study of Mus musculus with 26 samples.

Results

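Cholesterol synthesis and its control by sterols were followed through 26 genes in adult mouse testis RNA, chosen by gene name from the 51124 genes of the deposited table. They were 7 genes of the mevalonate and isoprenyl steps, 3 of the squalene and lanosterol steps, 9 between lanosterol and cholesterol, 5 of the control by sterol level and 2 of sterol transport. All 26 genes were found, and all 26 passed the filter of 10 normalized read counts in at least 2 libraries. The set was proposed as genes of cholesterol synthesis and uptake, but none of the 26 is an uptake receptor, and *Abca1* exports cholesterol. It is therefore described here as synthesis, sterol control and transport.

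Total RNA of whole adult testes was depleted of ribosomal RNA and sequenced for 3 genotypes, with 2 libraries from 2 mice each. The wild-type libraries (WT) are N1 and N2. The *10xPerf* libraries, N3 and N4, came from knock-in mice whose *Ythdc2* 3′UTR carries 10 sites fully complementary to piR-A, a pachytene piRNA. The *10xBulge* libraries, N5 and N6, came from mice with 10 such sites that are mismatched at piRNA positions 10 and 11. Both lines were made with CRISPR/Cas9 at the *Ythdc2* locus of the hybrid B6D2F1/J, and they were kept by crossing homozygous mice. The strain of the WT mice and the zygosity of the sequenced mice are not given in the sources used here. Each line is compared with WT, and the comparison is read here for cholesterol genes only. Effects of the piRNA sites cannot be told apart from other differences between a line and WT, such as any in strain background. Each library comes from its own mouse, so the p-values measure the spread between mice with 2 per genotype.

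Cholesterol is built from acetyl-CoA through mevalonate, isoprenyl diphosphates, squalene and lanosterol, and lanosterol is then demethylated, reduced and isomerised to cholesterol. The genes of this route are switched on together by SREBP transcription factors, which SCAP carries out of the endoplasmic reticulum when sterols are low and which INSIG proteins hold back when sterols are high. In the testis, Leydig cells convert cholesterol to testosterone, Sertoli and germ cells need it for membranes, and CYP51 is known to be abundant in spermatids, where the meiosis-activating sterols are made from lanosterol.

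The promoters of these genes share short motifs, and those that bear on their common control are shown first. RefSeq promoter windows on GRCm38.p6, from 250 bases before to 50 bases after a transcript start, were matched by symbol for 22 of the 26 genes, of which 5 had more than 1 window. *Fdft1*, *Fdps*, *Sqle* and *Stard4* had no window. Motifs were searched on both strands. The core of the sterol regulatory element to which SREBP binds, TCACNCCA, was in the windows of 3 of 22 genes (13.6%), against 4.97% of all 27025 genes with a window and 4.49% of the 13675 tested protein-coding genes. The CCAAT box, bound by NF-Y, a common partner of SREBP, was found for 19 of 22 genes (86.4%), against 41.1% of all genes and 42.5% of the tested protein-coding genes. The GC box GGGCGG, bound by SP1, was found for 21 of 22 (95.5%), against 38.2% and 59.3%. TGACG, the core of the cyclic AMP response element, was found for 9 of 22 (40.9%) against 23% and 30.4%. The palindromic E-box CACGTG was found for 6 of 22 (27.3%) against 8.09% and 10.4%. A match is a description of these letters and not evidence of binding.

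The 3 stretches with the sterol regulatory core are printed on the strand of the gene, with the core in capitals. They lie at chr13:119690203-119690232 (*Hmgcs1*, plus strand, core from position -137 relative to the start), chr8:64733737-64733766 (*Msmo1*, minus strand, from -177) and chr15:82147096-82147125 (*Srebf2*, plus strand, from -162).
Hmgcs1: acgtcaccgtcTCACCCCActtcccaggtc
Msmo1: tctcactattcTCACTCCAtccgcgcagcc
Srebf2: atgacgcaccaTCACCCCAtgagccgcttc
*Hmgcs1* and *Msmo1* rose in *10xBulge* against WT, and *Srebf2* did not pass the test there.

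The CCAAT box is shown for 3 genes that rose in the data (*Msmo1*, *Sc5d* and, in 1 comparison, *Insig1*). It is also shown for 2 that did not (*Cyp51* and *Mvk*). The box is in capitals, written ATTGG where it is on the other strand. Only 1 box is printed per gene. The *Msmo1* window has others from -160 and -55, and the *Mvk* window from -173, -120, -67 and -14. The stretches lie at chr8:64733657-64733686 (*Msmo1*, minus strand), chr9:42264307-42264336 (*Sc5d*, minus strand), chr5:28071184-28071213 (*Insig1*, plus strand), chr5:4104709-4104738 (*Cyp51*, minus strand) and chr5:114444207-114444236 (*Mvk*, plus strand).
Msmo1: ccttagcacggaCCAATcactgcacggcga
Sc5d: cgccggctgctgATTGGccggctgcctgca
Insig1: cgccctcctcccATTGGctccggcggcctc
Cyp51: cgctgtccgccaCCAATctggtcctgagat
Mvk: ttaatgtttgacCCAATctgtaaaggagcc
All printed stretches lie before the RefSeq start used. In the GENCODE annotation the genes *Msmo1* and *Cyp51* begin farther upstream, so their stretches fall within the annotated gene there. The 3 genes whose windows lack CCAAT are *Abca1*, *Acat2* and *Scap*.

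Depth was roughly 41.1 to 61.6 M reads per library, and 3 reads were worth 2.73 to 3.63 normalized counts, so every one of the 26 genes lay far above the counting floor. The libraries of a genotype still differed. The 18S ribosomal RNA *Rn18s* took 4.02% of the normalized counts of N1 and between 0.0449% and 0.410% of the others. Across 12426 protein-coding genes, the log ratio of replicates followed GC content with a Spearman's rho of 0.615 for N1 over N2, -0.242 for N3 over N4 and 0.518 for N5 over N6, as a description across genes that are not independent. Among the 26 genes the replicates differed at most 1.86-fold in WT (*Dhcr7*), 2.52-fold in *10xPerf* (*Ebp*) and 2.62-fold in *10xBulge* (*Fdft1*). The targeted gene *Ythdc2* had normalized counts of 827 and 2412 in WT, 1334 and 1136 in *10xPerf* and 1202 and 2458 in *10xBulge*, with overlap between all genotypes.

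In WT testis the genes were expressed at very unequal levels. Per kilobase of the longest transcript, the mean of *Fdft1*, squalene synthase, was 4339 normalized counts per kb (4895 and 3784 in the libraries). The next was *Fdps*, which makes farnesyl diphosphate, at 1122 (1434 and 810.1), followed by *Insig2* at 1079 (1304 and 853.9) and *Sqle*, squalene epoxidase, at 960 (910 and 1009). Both libraries of *Fdft1* exceeded both of every one of these 3, whereas the ranges of the 3 overlapped. The lowest was *Stard4*, a carrier of cholesterol between membranes, at 62.3 per kb. In *10xBulge*, *Fdft1* still had the highest mean, 2398 per kb, but its libraries lay at 3470 and 1326. *Abca1* stood second at 2060 per kb, up from place 13 in WT, and *Hmgcs1* next at 2058, up from place 9. *Msmo1* moved from place 20 to place 9, and *Cyp51* from place 6 to place 18.

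**Figure D1:**
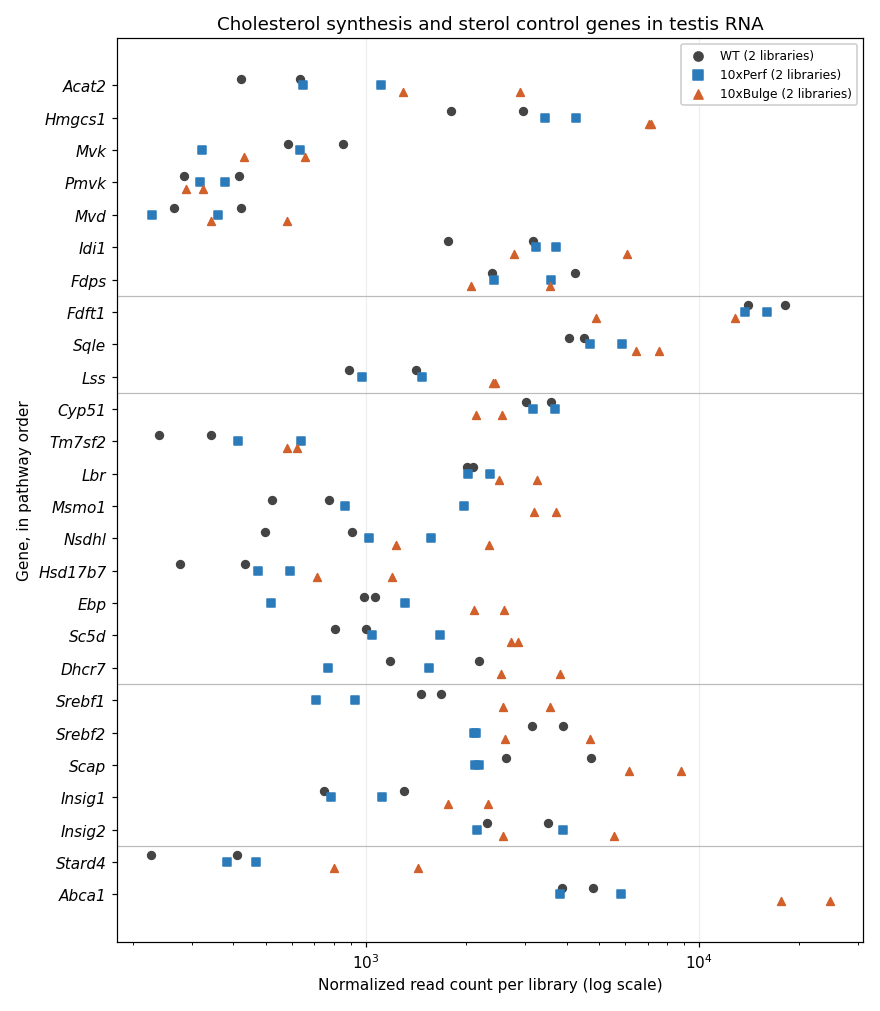
Normalized read counts (log scale, x axis) of the 26 genes in pathway order (y axis), with a point for each of the 6 libraries, WT as black circles, *10xPerf* as blue squares and *10xBulge* as orange triangles. Grey lines separate the 5 groups of genes. For *Msmo1* and *Abca1* both *10xBulge* libraries lie to the right of the other 4, and for *Cyp51* and *Fdft1* to the left.

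In *10xPerf* against WT, none of the 26 genes passed the limma test at an adjusted p under 0.1, where 0.959% of the 23782 tested genes did. At an unadjusted p under 0.05, 1 of the 26 passed (*Srebf1*), against 6.09% of all tested genes. Log2 fold changes ran from -0.95 to 1.04, 16 of 26 were above 0, and the median was 0.071 against 0.018 for all tested genes. The libraries did not overlap for 9 genes that were higher and 3 that were lower in *10xPerf*, against a background of 20.2% and 19.8% of tested genes. With 2 mice per genotype a change of moderate size could pass unseen, so these values do not show that the genes were alike in both genotypes.

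The 3 of 26 genes that were lower without overlap, a share under the 19.8% of all tested genes, were all in the control group. None of the 3 passed the test. *Srebf1*, which encodes SREBP1, had 1681 and 1464 normalized counts in WT and 709 and 924 in *10xPerf*, a log2 fold change of -0.95 (SE 0.39, adjusted p = 0.760). *Srebf2*, which encodes SREBP2, had 3914 and 3142 in WT against 2135 and 2112, with a log2 fold change of -0.72 (SE 0.42, adjusted p = 0.853). *Scap*, the escort of SREBP, had 4750 and 2635 in WT against 2187 and 2129 in *10xPerf* (log2 fold change -0.71, SE 0.43, adjusted p = 0.853). The *10xPerf* libraries of *Srebf2* and *Scap* were almost equal, and the WT libraries of *Scap* were 1.80-fold apart.

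The largest value in the other direction was that of *Msmo1*, methylsterol monooxygenase, which removes the methyl groups at C4. It had 521 and 772 normalized counts in WT and 865 and 1962 in *10xPerf*, a log2 fold change of 1.04 (SE 0.48, adjusted p = 0.853). *Nsdhl*, which works in the same demethylation, gave 0.92, *Tm7sf2*, a sterol reductase, 0.84, *Hmgcs1*, which makes HMG-CoA, 0.73 and *Acat2*, the cytosolic thiolase at the head of the route, 0.71, each with an adjusted p of 0.853. Their libraries did not overlap between the genotypes, but the gaps between replicates were of similar size.

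In *10xBulge* against WT, 10 of the 26 genes rose and 0 fell at an adjusted p under 0.1. Of all tested genes 34.4% passed, 11.4% higher and 23% lower. At an unadjusted p under 0.05, 14 of 26 passed, against 38.5% of all tested genes. Of the 26, 21 had a log2 fold change above 0, and their median was 0.99 against -0.03 for all tested genes. Both *10xBulge* libraries lay above both WT libraries for 17 genes and below for 2, against 28.9% and 33.2% of all tested genes. The 10 genes were *Msmo1*, *Sc5d*, *Hsd17b7*, *Nsdhl* and *Tm7sf2* of the steps after lanosterol, *Lss*, *Acat2* and *Hmgcs1* of the earlier steps, and both transport genes, *Stard4* and *Abca1*. Of the enzymes of synthesis 8 of 19 rose, and of the control genes 0 of 5. Without N1, 6 of the 26 rose: *Acat2*, *Hmgcs1*, *Tm7sf2*, *Nsdhl* and *Stard4* were no longer past the threshold, and *Scap* was. Without any other library the count was 7 to 9. When the libraries were scaled to equal totals in place of the authors' size factors, 17 of the 26 rose. That scaling moved the median of all genes up by 0.37 and turned 2712 higher and 5466 lower calls among all genes into 5777 and 4792, while the median of the 26 genes stayed 1.03 above that of all genes, against 1.02 before.

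Markers of several testis cell types moved between the same libraries. Their counts stand against 11.4% of all tested genes higher and 23% lower in *10xBulge* against WT. In *10xBulge* against WT, 18 of 18 spermatid markers fell, with a median log2 fold change of -7.31, and their summed level was 797061 to 1092610 normalized counts in WT and 2942 to 6100 in *10xBulge*. Of the 15 spermatocyte markers 1 rose and 2 fell (median 0.03, summed level 30616 to 57026 in WT and 25810 to 44982 in *10xBulge*). Of the 11 tested spermatogonial markers 1 rose and 1 fell (median 0.74), and their sum was 11615 to 14565 in WT and 20820 to 25163 in *10xBulge*. The spermatocyte and spermatogonial counts were under the shares of all tested genes in both directions. Of the somatic markers, 8 of 12 Sertoli markers rose (median 1.16, sums 92153 to 94322 in WT and 147799 to 302007 in *10xBulge*), as did 6 of 8 Leydig markers (median 1.77, sums 54612 to 77479 and 150962 to 319236). Of 8 macrophage markers 6 rose and 1 fell (median 1.53, sums 8744 to 9266 and 8472 to 13111). The marker that fell, *Aif1*, had 5411 and 5074 normalized counts in WT and 144 and 77.6 in *10xBulge*. It was the largest part of the macrophage sums in WT, so these sums mix its fall with the rise of the 6. Of 5 peritubular muscle and vessel markers none passed at an adjusted p under 0.1 (median 0.35, sums 5564 to 7662 and 7038 to 9756). No marker was at 0 in all libraries. The part of these shifts in the changes of the cholesterol genes was not tested. In RNA of a whole organ, fewer cells of a type and less RNA per cell cannot be told apart.

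In the steps from lanosterol to cholesterol, the largest group, 5 of 9 genes rose, against 11.4% of all tested genes. *Msmo1* had 521 and 772 normalized counts in WT and 3183 and 3720 in *10xBulge*. This was a 5.42-fold rise, or 2.44 on the log2 scale (SE 0.48, adjusted p = 0.00491). *Sc5d*, the sterol desaturase of the late steps, had 805 and 1000.0 in WT and 2730 and 2863 in *10xBulge* (log2 fold change 1.64, SE 0.40, adjusted p = 0.0161). For both genes the *10xBulge* libraries were close together and far above WT, and both passed the threshold in all 10 other settings and without any 1 library.

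*Hsd17b7*, the keto reductase of the C4 demethylation, had 434 and 277 in WT and 711 and 1194 in *10xBulge* (log2 fold change 1.41, SE 0.45, adjusted p = 0.0462). *Nsdhl*, the dehydrogenase of the same step, had 496 and 904 in WT and 2343 and 1232 in *10xBulge* (1.34, SE 0.49, adjusted p = 0.0763). *Tm7sf2* had 343 and 239 in WT and 581 and 619 in *10xBulge* (1.06, SE 0.42, adjusted p = 0.0968). None of these overlapped between the genotypes, but the calls were near the threshold: with single libraries left out, the adjusted p ran up to 0.192 for *Hsd17b7* (lost without N2, N3, N4 or N6), up to 0.349 for *Nsdhl* (lost without N1, N3, N4 or N5) and from 0.135 to 0.293 for *Tm7sf2* (lost without each of the 6). *Tm7sf2* also shares 532 exon bases on the same strand with *Vps51*, so reads of the shared part belong to either gene.

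The other 4 enzymes of this stretch did not pass. *Cyp51*, the lanosterol demethylase, had 3028 and 3591 normalized counts in WT and 2552 and 2134 in *10xBulge*, so both *10xBulge* libraries were below WT, with a log2 fold change of -0.50 (95% interval -1.35 to 0.35, adjusted p = 0.362). *Ebp*, the sterol isomerase, had 1064 and 987 in WT and 2590 and 2104 in *10xBulge* without overlap (1.19, SE 0.49, adjusted p = 0.105). *Dhcr7*, which catalyses the final reduction, had 2190 and 1178 in WT and 3817 and 2547 in *10xBulge* (0.96, SE 0.50, adjusted p = 0.191). *Lbr*, a sterol reductase and lamin receptor, had 2101 and 2007 in WT and 3257 and 2510.0 in *10xBulge* without overlap and did not pass.

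Up to lanosterol, 3 of 10 enzymes rose. *Acat2* had 421 and 633 normalized counts in WT and 2904 and 1290 in *10xBulge* (log2 fold change 1.90, SE 0.51, adjusted p = 0.0238). Its *10xBulge* libraries were 2.25-fold apart, and without single libraries the adjusted p ran from 0.00611 to 0.174, past the threshold in 4 of 6 (lost without N1 or N5). *Hmgcs1* had 1800 and 2957 in WT and 7180 and 7079 in *10xBulge* (1.63, SE 0.41, adjusted p = 0.0176), and it passed in 5 of 6 (lost without N1, where the adjusted p was 0.106). *Lss*, lanosterol synthase, had 1414 and 889 in WT and 2405 and 2447 in *10xBulge* (1.11, SE 0.42, adjusted p = 0.0826). Of the 6 fits with a library left out it passed only without N1, with adjusted p-values from 0.0973 to 0.273, and it passed in 6 of the 10 other settings. *Acat3*, a paralogue of *Acat2*, had 82.3 and 81.5 in WT and 503 and 243 in *10xBulge*, and reads that match both genes could have been divided between them by the authors' counting.

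None of the kinases and the decarboxylase between mevalonate and the isoprenyl diphosphates passed. *Mvk*, *Pmvk* and *Mvd* ran from 265 to 851 normalized counts in WT and from 288 to 657 in *10xBulge*, with overlap for each gene. *Fdps* overlapped too, and 1124 of its exon bases are shared on the same strand with *Gm43738*, which was at 9.19 in N2 and at 0 in the other libraries. *Idi1*, the isopentenyl diphosphate isomerase, had 1766 and 3181 in WT and 2784 and 6060 in *10xBulge* (0.79, adjusted p = 0.269). Its pseudogene *Idi1-ps1* carried 66.4 to 342 normalized counts. *Sqle* had 4067 and 4507 in WT and 7591 and 6450.0 in *10xBulge* without overlap (0.71, SE 0.38, adjusted p = 0.204).

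*Fdft1*, which had the highest level per kb in WT, was the other gene with both *10xBulge* libraries below WT. It had 18101 and 13992 normalized counts in WT and 12832 and 4905 in *10xBulge*, a log2 fold change of -1.004 (95% interval -2.16 to 0.15, adjusted p = 0.180). The value rests on N6: the log2 fold change was -1.70 without N5 and -0.31 without N6. *Fdft1* shares 774 exon bases on opposite strands with *Ctsb*, which rose by 1.75 on the log2 scale (adjusted p = 0.0306). The library kit keeps the strand, and salmon chose the library type by itself.

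Both transport genes rose. *Abca1*, the pump that hands cholesterol to lipoproteins, had 3884 and 4804 normalized counts in WT and 24631 and 17655 in *10xBulge*, a 4.83-fold rise (log2 fold change 2.27, SE 0.42, adjusted p = 0.00344). It passed the threshold in all 10 other settings and without any 1 library, with log2 fold changes from 2.03 to 2.65. *Stard4* had 226 and 409 in WT and 802 and 1432 in *10xBulge* (1.81, SE 0.47, adjusted p = 0.0207), and it passed in 5 of 6 with a library left out (lost without N1, adjusted p = 0.155). In neither gene did the libraries overlap.

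None of the 5 control genes rose or fell at an adjusted p under 0.1, and their values differed. *Srebf1* had 1681 and 1464 normalized counts in WT and 3567 and 2584 in *10xBulge* (log2 fold change 0.95, SE 0.39, adjusted p = 0.107). *Scap* had 4750 and 2635 in WT and 8848 and 6177 in *10xBulge* (1.06, SE 0.43, adjusted p = 0.103). *Insig1*, itself a target of SREBP, had 1301 and 746 in WT and 1758 and 2317 in *10xBulge* (1.03, SE 0.44, adjusted p = 0.114). All 3 were above WT in both libraries and passed when the libraries were scaled to equal totals. That scaling moved the median of all genes up by 0.37. Of the 10 other settings, which include it, *Srebf1* passed in 3, *Scap* in 4 and *Insig1* in 2. *Srebf2* had 3914 and 3142 in WT and 4693 and 2622 in *10xBulge*, with a log2 fold change of 0.00 and a 95% interval from -0.95 to 0.95. *Insig2* had 3516 and 2303 in WT and 2582 and 5552 in *10xBulge* (0.41, SE 0.51, adjusted p = 0.594). The *10xBulge* libraries of *Srebf2* lay on both sides of WT, and those of *Insig2* lay within the WT range (N5) and above it (N6).

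**Figure D2:**
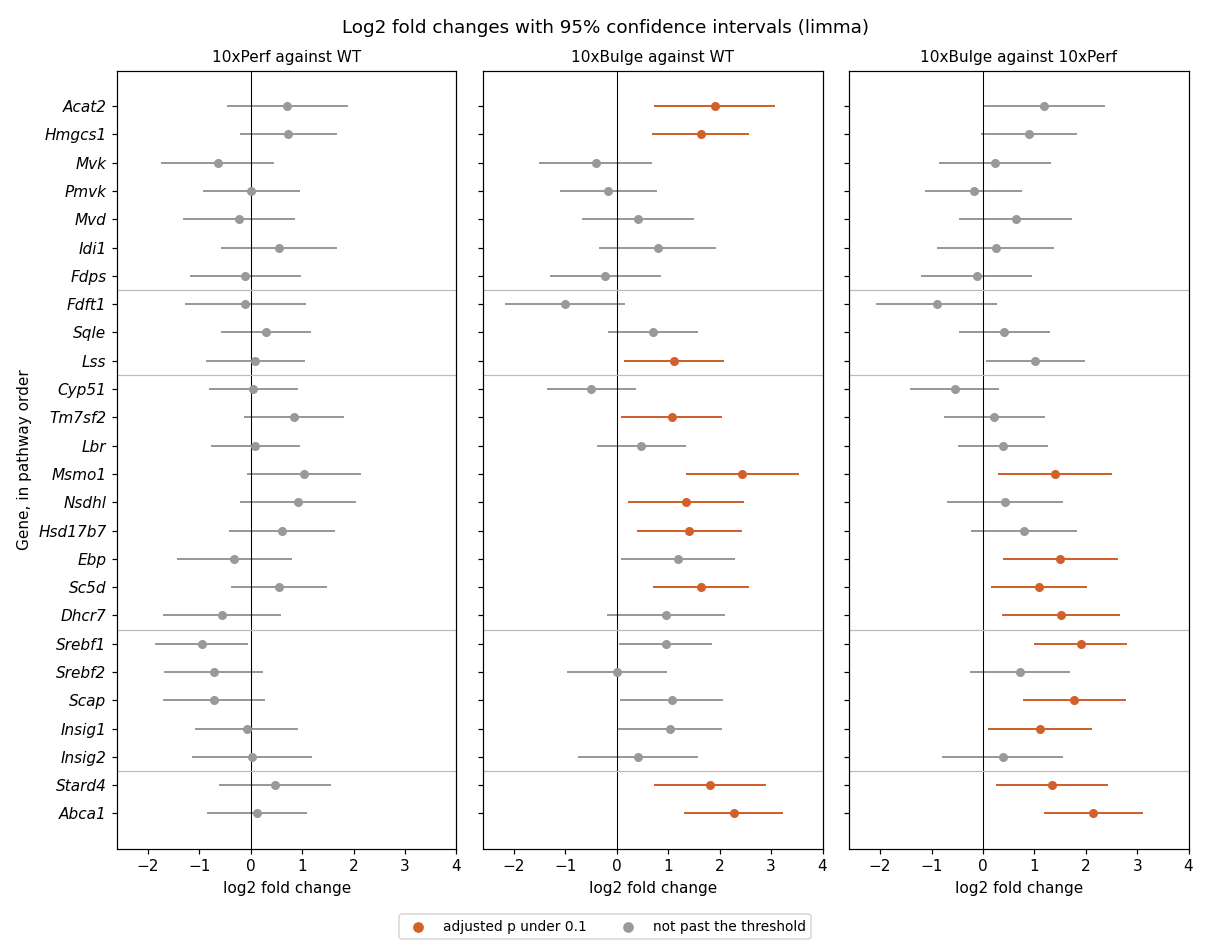
Log2 fold change (x axis) of each of the 26 genes in pathway order (y axis) for the 3 comparisons, with points for the limma estimates and bars for the 95% confidence intervals. Orange marks an adjusted p under 0.1 and grey the rest. No gene is orange in *10xPerf* against WT, 10 are in *10xBulge* against WT and 9 in *10xBulge* against *10xPerf*.

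Ratios of genes within a library do not depend on the scaling between libraries. They are ratios of normalized counts without correction for transcript length, so only their differences between libraries are read. The log2 ratio of *Msmo1* to *Cyp51* was -2.54 and -2.22 in WT, -1.88 and -0.91 in *10xPerf* and 0.32 and 0.80 in *10xBulge*. For *Sc5d* to *Cyp51* it was -1.91 and -1.84 in WT, -1.61 and -1.14 in *10xPerf* and 0.10 and 0.42 in *10xBulge*. Both ratios were higher in the *10xBulge* libraries than in the 4 others.

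Around *Fdft1* the order was similar. The log2 ratio of *Lss* to *Fdft1* was -3.68 and -3.98 in WT, -3.82 and -3.45 in *10xPerf* and -2.42 and -1.003 in *10xBulge*. For *Sqle* to *Fdft1* it was -2.15 and -1.63 in WT, -1.55 and -1.45 in *10xPerf* and -0.76 and 0.40 in *10xBulge*. Among the control genes, *Scap* to *Srebf2* was 0.28 and -0.25 in WT, 0.03 and 0.01 in *10xPerf* and 0.91 and 1.24 in *10xBulge*. *Insig1* to *Insig2* was -1.43 and -1.63 in WT, -1.46 and -1.81 in *10xPerf* and -0.55 and -1.26 in *10xBulge*. Each of these 6 ratios was highest in the *10xBulge* libraries, without overlap. In every pair the first gene had the higher log2 fold change in *10xBulge* against WT. The order of the ratios therefore restates those values and is no separate support for them. An exact permutation test of 2 against 2 libraries cannot go below a two-sided p of 0.333, so no p is given for them.

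**Figure D3:**
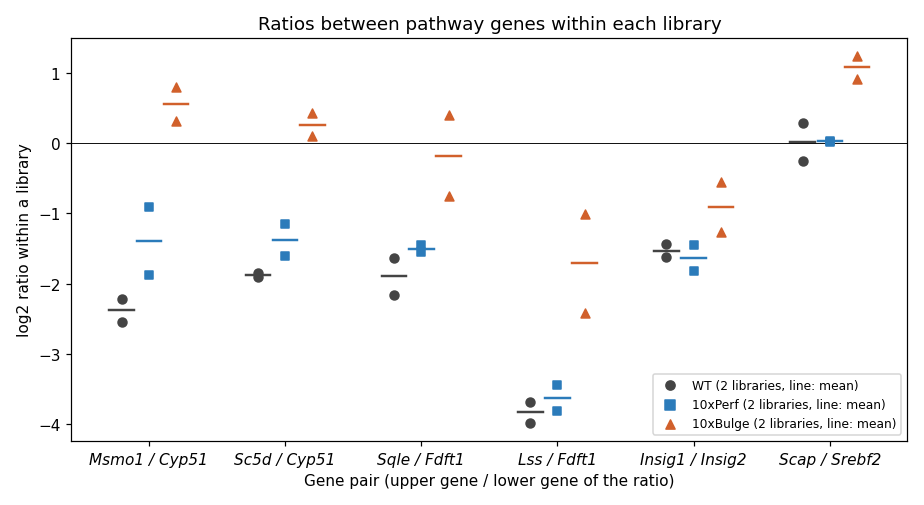
Log2 ratio of a pair of genes within each library (y axis) for 6 pairs (x axis), with a point for each library and a line for the mean of the genotype. In all 6 pairs both *10xBulge* libraries lie above the other 4, from 0.91 and 1.24 for *Scap* to *Srebf2* down to -2.42 and -1.003 for *Lss* to *Fdft1*.

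In *10xBulge* against *10xPerf*, which uses the same *10xBulge* libraries, 9 of the 26 genes rose and 0 fell. Of all tested genes 37% passed, 12.9% higher and 24.1% lower. The median log2 fold change was 0.76 against -0.07 for all tested genes, and 22 of 26 were above 0. At an unadjusted p under 0.05, 11 of 26 passed, against 40.2% of all tested genes. Both *10xBulge* libraries were above both *10xPerf* libraries for 16 genes and below for 2, against 30.7% and 35.3% of all tested genes. The 9 genes were *Abca1*, *Srebf1*, *Scap*, *Dhcr7*, *Ebp*, *Msmo1*, *Stard4*, *Insig1* and *Sc5d*, so 3 of 5 control genes passed here. The count fell to 2 without N3 (*Abca1* and *Srebf1*) and to 5 without N5. Scaled to equal totals, 13 of the 26 rose. That scaling moved the median of all genes up by 0.24, and the calls among all genes went from 3077 higher and 5729 lower to 5108 and 5206.

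*Abca1* had 3821 and 5807 normalized counts in *10xPerf* against 24631 and 17655 in *10xBulge* (log2 fold change 2.15, SE 0.42, adjusted p = 0.00450). For *Srebf1*, 709 and 924 in *10xPerf* stood against 3567 and 2584 (1.91, SE 0.39, adjusted p = 0.00602). *Scap*, at 2187 and 2129 in *10xPerf* and 8848 and 6177 in *10xBulge*, gave 1.78 (SE 0.43, adjusted p = 0.0145), and it was lost without N3 or N4. None of the 3 overlapped. *Srebf1* and *Scap* were lower in *10xPerf* than in WT, so their distance from *10xBulge* is larger here than against WT, while neither step from WT passed the test.

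*Dhcr7* had 769 and 1540 in *10xPerf* and 3817 and 2547 in *10xBulge* (1.52, SE 0.50, adjusted p = 0.0497), and *Ebp* 518 and 1306 against 2590 and 2104 (1.50, SE 0.49, adjusted p = 0.0464). Both were lost without N3 and without N5. *Msmo1* had 865 and 1962 in *10xPerf* (1.40, SE 0.48, adjusted p = 0.0564), and it was lost without N3, where the log2 fold change was 0.81, and without N6. *Stard4* had 382 and 468 in *10xPerf* (1.34, SE 0.47, adjusted p = 0.0625). *Insig1* had 784 and 1114 in *10xPerf* (1.11, SE 0.44, adjusted p = 0.0885). *Sc5d* had 1042 and 1667 in *10xPerf* (1.08, SE 0.40, adjusted p = 0.0746). *Stard4* was lost without N3, N4 or N6, *Sc5d* without N3, N5 or N6, and *Insig1* without N3, N4, N5 or N6.

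*Acat2* (647 and 1108 in *10xPerf*), *Hmgcs1* (3436 and 4280), *Lss* (972 and 1470), *Nsdhl* (1021 and 1568), *Hsd17b7* (472 and 592) and *Tm7sf2* (412 and 639), which rose against WT, did not pass against *10xPerf*. Whether the differences from WT and from *10xPerf* themselves differ comes down to *10xPerf* against WT, where none passed. *Cyp51* (3176 and 3684 in *10xPerf*) and *Fdft1* (13696 and 16026) were again below, with log2 fold changes of -0.55 (adjusted p = 0.308) and -0.90 (adjusted p = 0.220). *Srebf2* (2135 and 2112) gave 0.72 (adjusted p = 0.231), and *Insig2* had 2151 and 3913 in *10xPerf*, which overlapped the *10xBulge* libraries. The marker sums of *10xPerf* were 902741 and 1039520 for spermatids, 67648 and 48616 for spermatocytes, 7584 and 11858 for spermatogonia, 65401 and 93935 for Sertoli cells, 46943 and 83129 for Leydig cells, 10573 and 12506 for macrophages and 4963 and 5178 for peritubular muscle and vessels. The macrophage sums were above and the peritubular sums below both WT libraries, and the others overlapped with WT. The largest part of the macrophage sums was 1 marker, *Aif1*, with 5411 and 5074 normalized counts in WT and 6714 and 6758 in *10xPerf*. The macrophage difference therefore cannot be read as one of the whole list. The part of the cell types in these differences was not tested.

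Genes beside the pathway were read from lists drawn up by function. In *10xPerf* against WT none of the genes of the 6 lists passed at an adjusted p under 0.1. The counts below stand against 11.4% of all tested genes higher and 23% lower in *10xBulge* against WT, and 12.9% and 24.1% in *10xBulge* against *10xPerf*. The 13 genes of fatty acid synthesis that are served by the same transcription factor family had 8 that rose and 0 that fell in *10xBulge* against WT, with a median log2 fold change of 1.23. The desaturases *Scd1* (2.11, adjusted p = 0.00877) and *Scd2* (1.77, adjusted p = 0.0192) had the smallest p. Against *10xPerf* 6 rose and 0 fell (median 1.18), led by the acyltransferase *Gpam* (1.64, adjusted p = 0.0155) and *Scd2* (1.73, adjusted p = 0.0205).

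Of the 26 genes for movement, storage and turnover of sterols, 8 rose and 3 fell in *10xBulge* against WT (median 0.49), and 11 rose and 3 fell against *10xPerf* (median 0.83). The lysosomal acid lipase *Lipa* had 353 and 460 normalized counts in WT and 1973 and 1676 in *10xBulge* (log2 fold change 2.17, adjusted p = 0.00749). *Scarb2*, a lysosomal membrane protein, gave 2.22 (adjusted p = 0.00867). The largest falls were in *Lipe*, hormone-sensitive lipase, with 20695 and 16763 in WT and 1692 and 933 in *10xBulge* (-3.89, adjusted p = 0.000135), and *Stard6*, a sterol carrier of germ cells, at -2.54 (adjusted p = 0.00190). The third gene that fell, named with its values known, was *Nr1h3*, which encodes the sterol receptor LXR alpha (-2.05, adjusted p = 0.0161). Against *10xPerf* *Lipe* and *Stard6* gave -3.91 (adjusted p = 0.000125) and -2.96 (adjusted p = 0.000689), and *Nr1h3* -1.64 (adjusted p = 0.0390). The genes with the smallest p among those that rose there were *Nceh1*, which hydrolyses cholesterol esters (1.90, adjusted p = 0.00955), and *Soat1*, which forms them (1.96, adjusted p = 0.0109).

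Of the 11 genes that turn cholesterol into steroid hormones, 5 rose and 0 fell in *10xBulge* against WT (median 1.18) and 7 rose and 0 fell against *10xPerf* (median 1.55). This list shares genes with the Leydig markers. *Cyp17a1* had 11809 and 11888 normalized counts in WT and 86000 and 34939 in *10xBulge* (2.21, adjusted p = 0.0151), and *Hsd3b1* gave 2.78 (adjusted p = 0.00745). The other genes that rose were *Hsd17b3*, *Hsd3b6* and *Fdxr*. Against *10xPerf*, *Fdxr* gave 1.85 (adjusted p = 0.0133) and *Hsd3b6* 2.19 (adjusted p = 0.0136). The *10xBulge* libraries of *Cyp17a1* were far apart, with N5 the higher, as in the Leydig and Sertoli sums.

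Of 17 genes of the isoprenoid side branches, which use mevalonate products for ubiquinone, dolichol and prenylated proteins, 3 rose and 0 fell against WT (median 0.88) and 6 rose and 0 fell against *10xPerf* (median 0.82). The 3 of 17 are near the 11.4% of all tested genes that rose against WT. *Trit1*, which adds an isopentenyl group to tRNA, gave 1.89 (adjusted p = 0.0111) and *Pdss1*, of the ubiquinone tail, 1.48 (adjusted p = 0.0584) against WT, where the other gene that rose was *Rabggtb*. *Coq2* gave 1.35 (adjusted p = 0.0319) and *Dhdds* 1.10 (adjusted p = 0.0694) against *10xPerf*. Of 13 genes for cleavage of SREBP and for sterol-regulated degradation, 2 rose and 1 fell against WT (median 0.43), and 3 rose and 1 fell against *10xPerf* (median 0.30). The 2 of 13 are near the 11.4% of all tested genes that rose against WT, and the 1 of 13 is under the 23% that fell. The protease *Mbtps1*, which makes the first cut in SREBP, gave 1.16 (adjusted p = 0.0586) and 1.38 (adjusted p = 0.0284), and *Pgrmc1*, a membrane haem protein, 1.78 (adjusted p = 0.0164) and 1.20 (adjusted p = 0.0711), each against WT first and against *10xPerf* second. The other gene that rose against *10xPerf* was the ubiquitin ligase *Marchf6*. The ubiquitin ligase *Rnf139* fell by 2.27 (adjusted p = 0.00254) and by 2.53 (adjusted p = 0.00122) on the log2 scale. Of the paralogues of the 26 genes, *Acat3* rose in both comparisons, by 2.08 against WT (adjusted p = 0.0190) and by 2.09 against *10xPerf* (adjusted p = 0.0176).

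**Figure D4:**
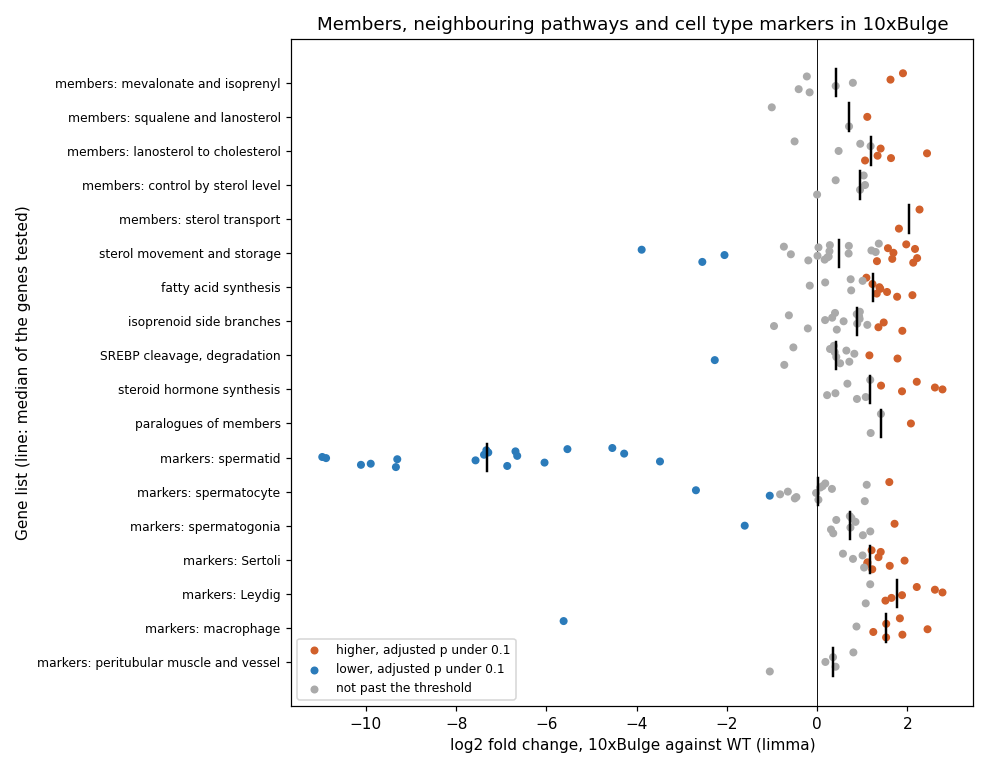
Log2 fold change in *10xBulge* against WT (x axis) for the 26 genes by group, the neighbouring pathways and the cell type markers (y axis), with a point for each tested gene and a black line for the median. Orange marks genes that rose and blue genes that fell at an adjusted p under 0.1, and grey the rest. The spermatid markers lie at a median of -7.31, while the medians of the 26 genes' 5 groups lie between 0.41 and 2.04.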

How the data were processed

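The RNA-seq libraries of 6 mice were analysed, 2 for each of 3 genotypes, and the 20 MILI and MIWI immunoprecipitation libraries are not analysed here. The authors quantified the reads with salmon, with its GC correction, on GRCm39 with Ensembl transcripts. The deposited unit is a signal, the read count of each gene after DESeq2 normalization, and reads could not be recovered from it (in only 19.4% of genes above 0 did all libraries give whole reads, within 0.01). The authors' log2 fold changes and adjusted p-values and their mean column were not used. The versions of salmon and DESeq2 are not given in the sources used here.

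The tests used the 23782 of 51124 genes that reached 10 in 2 or more libraries. The limma-trend model (limma 3.58.1, R 4.3.3) took log2(value + 1) with 1 term per genotype over all 6 libraries, and p-values were adjusted by Benjamini-Hochberg over all genes, with the threshold at 0.1. Log2 fold changes are on that scale. Depth was estimated from the worth of 1 read, and it covers counting error only.

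The 26 genes, their groups and the other lists were chosen with earlier results of these data known. All 26 are accounted for. Library values are given for genes that passed in any comparison and for *Srebf2*, *Cyp51*, *Insig1* and *Insig2*, and from each other list the 2 genes with the smallest p in each direction were named where they passed. A gene of these lists is not reported here. Further genes (*Fdft1*, *Idi1*, *Sqle*, *Lbr*, *Ctsb*, *Vps51*, *Gm43738*, *Idi1-ps1*, *Mexis*, *Nr1h3* and others that complete a short count) were added after their values were seen. Transcript lengths, GC content and overlaps come from GENCODE on GRCm38, and promoter windows from RefSeq on GRCm38.p6. No values were carried between builds.

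Alternatives were scaling to equal totals or upper quartiles, filters of 1 in 1 library or 10 in every library, pseudocounts of 0.1 and 10, a fit of only the 2 genotypes compared, no mean-variance trend, an adjusted p under 0.05 and leaving out each library. Removal of each library's GC trend (robust loess, span 0.3) was chosen after seeing the data. Figures were drawn with matplotlib 3.10.9 in Python 3.11.15.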

Additional observations from a re-analysis of the deposited data

How the results depend on the processing

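In *10xPerf* against WT none of the 26 genes passed the threshold in limma under any alternative. In *10xBulge* against WT 10 rose and 0 fell. With scaling by library totals 17 rose and 0 fell, and with the GC trend removed 17 rose and 1 fell (*Fdft1*). Leaving out single libraries gave 6 to 9 risen and 0 to 1 fallen, the 1 being *Fdft1* without N5. The other alternatives gave 7 to 13 risen. *Msmo1*, *Sc5d* and *Abca1* passed in all 10 alternatives and all 6 fits with a library left out, and *Acat2*, *Hmgcs1* and *Stard4* in all 10 alternatives. In *10xBulge* against *10xPerf* 9 rose and 0 fell. At an adjusted p under 0.05, 5 rose, with the GC trend removed 13 rose and 1 fell (*Fdft1*), and leaving out single libraries gave 2 to 10 risen and 0 to 1 fallen. The value of *Srebf2* in *10xBulge* against WT changed sign when single libraries were left out, between -0.42 and 0.42, and that of *Insig2* between -0.14 and 0.96. Fewer libraries make the fits less precise, and otherwise the cause was not tested. Scaling to totals raised the number of the 26 genes above 0 from 16 to 19 in *10xPerf* against WT, from 21 to 23 in *10xBulge* against WT and from 22 to 24 in *10xBulge* against *10xPerf*, so some values near 0 changed sign, but none of the fold changes printed above for single genes of the 26. No paired analysis was possible because the libraries of the 3 genotypes carry different numbers and no shared litter or day is given. With 2 mice per genotype and replicate gaps of up to 2.62-fold, changes of moderate size could not be shown.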

Other observations

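The long noncoding RNA *Mexis*, whose annotation names *Abca1*, was looked up after its values were seen. It had 9.39 and 14.6 normalized counts in WT, 51.4 and 41.98 in *10xPerf* and 89.8 and 63.4 in *10xBulge*. The WT values were low, as 1 read was worth 1.21 in N1 and 0.919 in N2. With N1 under the filter of 10, the gene was tested only because knock-in libraries reached it too. The libraries did not overlap between any of the genotypes. Of all tested genes, 20.2% were higher without overlap in *10xPerf* against WT, 28.9% in *10xBulge* against WT and 30.7% in *10xBulge* against *10xPerf*. In limma the log2 fold change was 1.90 (SE 0.53, adjusted p = 0.317) in *10xPerf* against WT, 2.59 (SE 0.53, adjusted p = 0.00660) in *10xBulge* against WT and 0.69 (SE 0.53, adjusted p = 0.371) in *10xBulge* against *10xPerf*. *Abca1* itself overlapped between WT and *10xPerf*.

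The ratio of *Hmgcs1* to *Fdps* separated N1 from every other library: on the log2 scale it was -1.23 in N1, 0.31 in N2, 0.50 and 0.25 in *10xPerf* and 1.01 and 1.78 in *10xBulge*. *Srebf1* to *Srebf2* was -1.22 and -1.10 in WT, -1.59 and -1.19 in *10xPerf* and -0.40 and -0.02 in *10xBulge*.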
